A study of Mus musculus with 2 samples.

Results

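The PPAR receptors, their RXR partners and 4 regulators that act with them were followed as 9 genes, Ppara, Ppard, Pparg, Rxra, Rxrb, Ppargc1a, Ppargc1b, Ncor1 and Hnf4a, chosen by name out of 32285 genes in the count tables. Each of the 9 symbols matched 1 row. The cells came from the intestinal epithelium of wild type (WT) mice and of littermates that overexpress MG53, the product of Trim72, throughout the body (MG53-TG). Both genotypes were given 2.5% dextran sulfate sodium (DSS), which damages the epithelium when drunk, and live EpCAM+ cells that excluded the dye 7-AAD were sorted on day 7 for droplet sequencing of RNA 3′ ends. Each genotype was 1 library, and the labels give neither an age nor the number of mice behind it. The study speaks of several mice a group for this experiment without saying how they entered the libraries, and no value used here separates them, so that genotype, library and mouse cannot be told apart. No test between the genotypes was possible, and every interval below is a 95% interval that covers counting error only. Ratios are log2 of MG53-TG over WT, and a ratio of at least 0.32 in size is called past the fold limit. The comparison bears on the question whether MG53 raises the PPARα pathway in the injured epithelium and its stem cells.

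PPARα, PPARδ and PPARγ are nuclear receptors that bind fatty acids and their derivatives. Each binds DNA only as a pair with a retinoid X receptor (RXR), at a repeat of the motif AGGTCA with 1 base between the copies, and turns on genes of fatty acid uptake, storage and oxidation. PGC-1α and PGC-1β, from Ppargc1a and Ppargc1b, are coactivators that join the pair and drive mitochondrial genes, whereas NCoR1 recruits histone deacetylases to receptors without ligand. HNF4α is a separate nuclear receptor that holds intestinal epithelial identity and binds similar repeats. In the intestine the PPARs are known for fat handling in enterocytes and for the response of crypt stem cells to dietary fat.

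Promoter windows of 300 bases, from 250 before to 50 after each annotated start, were taken from RefSeq on build GRCm38.p6 for 8 members, 14 windows in all. Ppara, Rxra and Ppargc1a are shown as a receptor, its partner and a coactivator that were each lower in goblet-like than in absorptive cells, though highest in different absorptive types, and Pparg because it was highest in tuft-like cells. Capitals mark AGGTCA on either strand, a single copy of the repeat, which 16.3% of the 32851 windows in the table hold. The Ppara window lies at chr15:85735526-85735825 on the plus strand, those of Rxra at chr2:27676951-27677250 and chr2:27709042-27709341 on the plus strand, that of Ppargc1a at chr5:51567676-51567975 on the minus strand and the first of Pparg at chr6:115360894-115361193 on the plus strand.

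Ppara: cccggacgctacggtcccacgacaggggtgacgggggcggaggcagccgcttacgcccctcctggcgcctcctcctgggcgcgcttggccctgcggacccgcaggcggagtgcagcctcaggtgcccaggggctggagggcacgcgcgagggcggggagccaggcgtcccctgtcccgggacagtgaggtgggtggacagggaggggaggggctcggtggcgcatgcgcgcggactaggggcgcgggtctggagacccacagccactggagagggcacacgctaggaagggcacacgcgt
Rxra, upstream start: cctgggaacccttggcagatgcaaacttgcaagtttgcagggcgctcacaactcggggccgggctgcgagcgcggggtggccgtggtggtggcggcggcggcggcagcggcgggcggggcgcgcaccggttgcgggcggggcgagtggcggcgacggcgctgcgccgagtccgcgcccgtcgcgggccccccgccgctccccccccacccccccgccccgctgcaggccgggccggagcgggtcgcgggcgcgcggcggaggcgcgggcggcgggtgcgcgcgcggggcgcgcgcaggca
Rxra, downstream start: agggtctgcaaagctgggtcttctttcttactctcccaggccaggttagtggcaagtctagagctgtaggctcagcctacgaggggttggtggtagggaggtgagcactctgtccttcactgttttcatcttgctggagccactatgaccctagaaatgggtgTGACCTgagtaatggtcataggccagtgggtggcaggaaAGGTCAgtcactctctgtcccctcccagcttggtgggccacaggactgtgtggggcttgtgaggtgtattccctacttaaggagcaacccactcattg
Ppargc1a: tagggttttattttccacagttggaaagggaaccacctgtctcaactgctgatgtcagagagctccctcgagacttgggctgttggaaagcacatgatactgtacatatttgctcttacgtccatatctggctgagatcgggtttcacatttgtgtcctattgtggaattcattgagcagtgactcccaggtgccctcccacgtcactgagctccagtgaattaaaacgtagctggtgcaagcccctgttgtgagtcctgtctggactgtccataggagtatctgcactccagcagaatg
Pparg, upstream start: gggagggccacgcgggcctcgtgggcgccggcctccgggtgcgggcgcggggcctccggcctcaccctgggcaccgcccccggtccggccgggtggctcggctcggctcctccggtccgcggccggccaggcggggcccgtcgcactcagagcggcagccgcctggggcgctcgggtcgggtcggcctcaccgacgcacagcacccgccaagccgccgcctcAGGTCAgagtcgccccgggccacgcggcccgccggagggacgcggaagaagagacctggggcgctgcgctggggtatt

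The Ppara window was rich in CpG, with 30 CpG dinucleotides against a median of 7 over all windows, and held no such copy. The Rxra starts differed, with 55 CpG and no such copy upstream and 1 CpG and 2 such copies downstream. The Ppargc1a window held 5 CpG and no such copy, and the upstream Pparg window 44 CpG and 1 such copy. The full repeat AGGTCANAGGTCA was in 0.0396% of all windows, the HNF4 core CAAAGTCC in 1.42% and the octamer ATGCAAAT, the motif of POU factors, in 1.74%, and none of these 3 was in any of the 14 windows of the members. A match of letters is a description and shows no binding.

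The WT table held 158455748 unique molecular identifiers (UMIs) and that of MG53-TG 128227881. After the filters, 6963 WT and 4941 MG53-TG cells remained, of which 6119 and 4606 were epithelial by their markers, with medians of 15666 and 18654.5 UMIs. Epcam stood at 567 and 600.3 UMIs per 1000000 (CPM), the ileal bile acid carrier Fabp6 at 342 and 140.3 CPM, and the colon gene Car1 at 0 in both. Trim72 checked the labels, with 0.594 CPM in the WT and 50.8 CPM in the MG53-TG library. Although the cells were sorted for EpCAM, and the study calls them negative for CD45, the product of Ptprc, 601 WT and 234 MG53-TG cells were immune-like, with Ptprc at 1152 and 1350.3 CPM, and are used below as cells outside the epithelium. A further 243 WT and 101 MG53-TG cells outside the epithelium, in clusters led by Xcl1 and by Igkc, stayed unnamed and are left out below. The libraries shared 8 cell barcodes. WT droplets with 1 to 100 UMIs, which carry free RNA, held 7.76 CPM of Ppara, 42.2 CPM of Ppard, 3.63 CPM of Pparg, 21.1 CPM of Rxra, 14.2 CPM of Rxrb, 26.1 CPM of Ppargc1a, 20.8 CPM of Ppargc1b, 200.2 CPM of Ncor1, 129.7 CPM of Hnf4a and 128 CPM of Ptprc, and the table of MG53-TG, whose lowest barcode had 500 UMIs, allowed no such estimate. The part of free RNA in the levels of the types was not tested.

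Cells fell into 10 marker-defined epithelial types. Levels below are CPM over the type's total, not scaled to gene length, so each gene is compared across types and not with other genes. Ppara was highest in early enterocyte-like cells, young absorptive cells, in both libraries, at 29.6 CPM (27.0 to 32.3) in WT cells and 33.5 CPM (29.8 to 37.4) in MG53-TG cells. Ileal bile acid enterocyte-like cells followed at 22.9 and 16.8 CPM, cycling crypt-like cells at 18.3 and 18.4 CPM and enterocyte-like cells at 17.4 and 17.8 CPM in WT and MG53-TG. The early enterocyte-like level lay above all others beyond the intervals in MG53-TG, and in WT it overlapped that of the ileal type, while the 3 types after it overlapped one another. The ileal level came mostly from the cluster led by Fabp6 and Gsdmc4, which also carries early enterocyte markers, at 26.2 and 20.1 CPM, against 11.5 and 7.77 CPM in the other. Ppara was lower on the secretory side. Goblet-like cells held 5.44 CPM (4.55 to 6.46) in WT cells and 5.89 CPM (5.08 to 6.79) in MG53-TG cells, tuft-like cells 3.06 and 2.24 CPM and Paneth-like cells 2.68 and 1.69 CPM. The WT levels of these 3 types lay below the 7.76 CPM of the free RNA. Few genes set the Paneth-like scale, and a rescaled value is given below. Secretory progenitor-like cells, a cluster that carries secretory markers but whose leading genes, such as Mxd3 and Mki67, are those of the cell cycle, held 7.62 and 3.18 CPM. Enteroendocrine-like cells stood between the groups at 11.9 and 12.6 CPM, next to stem-like cells at 11.0 and 12.4 CPM, and stem-like cells lay above goblet-like cells beyond the intervals in both libraries.

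**Figure D1:**
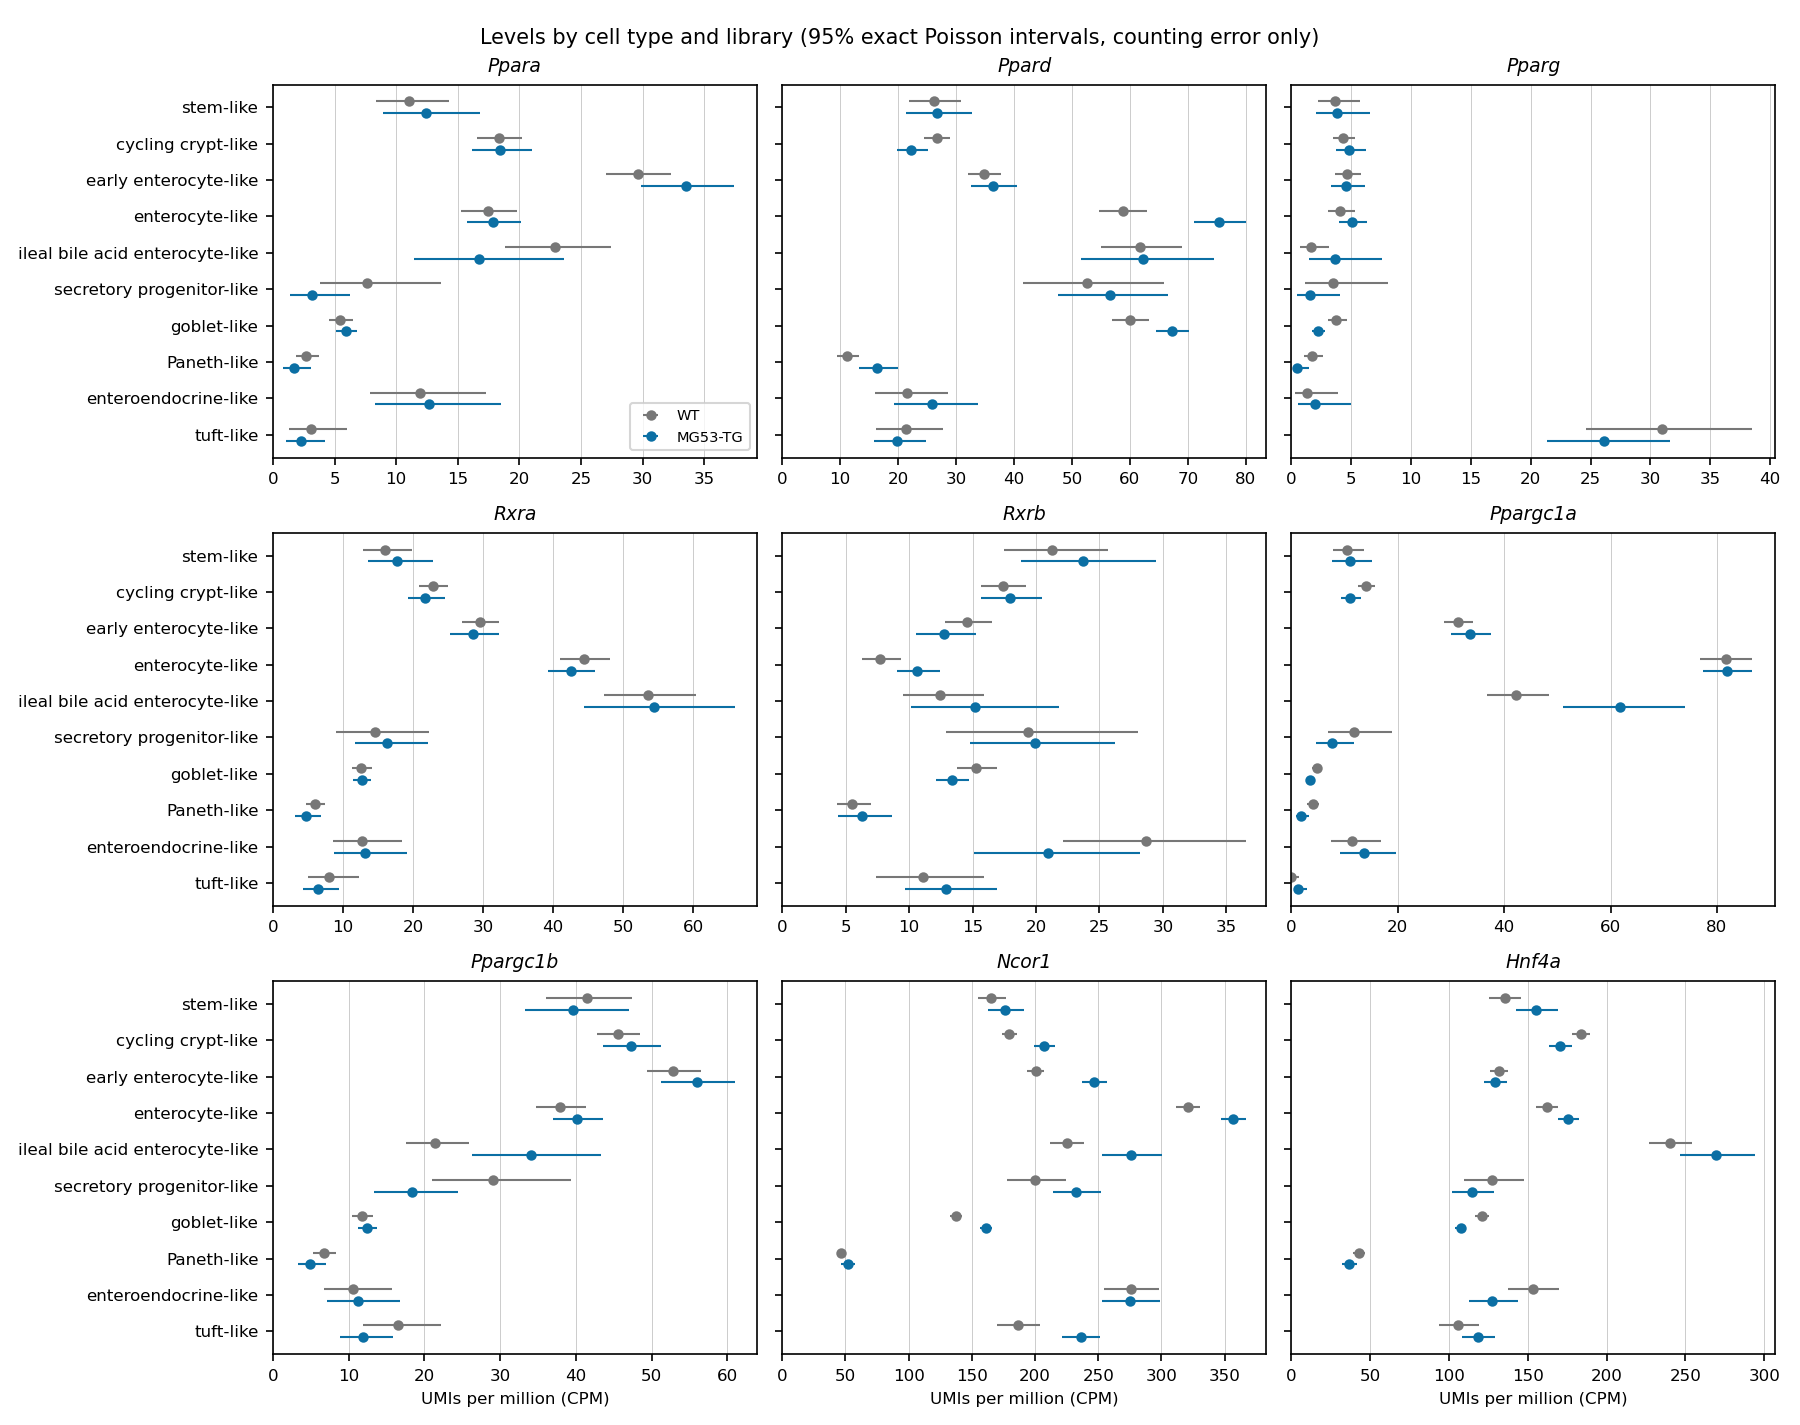
Level of each gene in CPM (x axis, starting at 0) in 10 epithelial cell types (y axis) for the WT library (grey) and the MG53-TG library (blue), with 95% exact Poisson intervals. Ppara peaks in early enterocyte-like cells, at 29.6 and 33.5 CPM, and Pparg in tuft-like cells, at 31.0 and 26.1 CPM, while Rxra and Ppargc1a are highest in the enterocyte-like types.

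Ppard, the receptor known as the most widespread of the 3, had its high levels in both mature absorptive and goblet cells. In enterocyte-like cells it stood at 58.8 CPM (54.7 to 63.0) in WT cells and 75.4 CPM (71.0 to 80.0) in MG53-TG cells, in goblet-like cells at 60.1 and 67.2 CPM and in ileal bile acid enterocyte-like cells at 61.8 and 62.3 CPM. These 3 types overlapped in WT, and in MG53-TG enterocyte-like cells stood above goblet-like cells. Secretory progenitor-like cells followed at 52.7 and 56.5 CPM, and stem-like cells held 26.1 and 26.7 CPM. Goblet-like cells were thus high for Ppard and low for Ppara, with 34.7% of the Ppard UMIs and 8.67% of the Ppara UMIs of the named types in WT and 48.5% and 17.0% in MG53-TG. They held 22.9% of all UMIs of these types in WT and 36.5% in MG53-TG. The free RNA level of Ppard, 42.2 CPM, lay above the WT levels of stem-like, cycling crypt-like and early enterocyte-like cells and below those of goblet-like and enterocyte-like cells.

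Pparg was low outside tuft-like cells, the chemosensory cells of the epithelium. Tuft-like cells held 31.0 CPM (24.6 to 38.5) in WT cells and 26.1 CPM (21.3 to 31.6) in MG53-TG cells, from 81 and 105 UMIs. Early enterocyte-like cells followed at 4.62 and 4.56 CPM, cycling crypt-like cells at 4.35 and 4.83 CPM and enterocyte-like cells at 4.04 and 5.04 CPM, and the tuft-like level lay above each of them beyond the intervals in both libraries. Free RNA stood at 3.63 CPM (2.28 to 5.50), an interval that overlapped the WT interval of each epithelial type but tuft-like cells. Its part in these lower levels was not tested. Tuft-like cells made up 3.78% and 6.19% of epithelial cells and gave 17.9% and 27.3% of the Pparg UMIs of the named types. Of their 2 clusters, the larger, led by Nrgn and Matk, held 36.9 and 35.3 CPM, and the smaller, led by Nrep, Gng13 and Pou2f3, 18.8 and 6.91 CPM. With each cell thinned to the least UMIs any kept cell could have, 4.76% (2.40% to 8.36%) of WT and 3.16% (1.45% to 5.91%) of MG53-TG tuft-like cells had a Pparg UMI, against 28.6% and 27.0% unthinned. Immune-like cells, at median depths of 2879 and 3589 UMIs against 10763 and 14025 in tuft-like cells, had none in 601 and 234 cells, which at these depths allows shares of cells with a UMI of up to 0.499% and 1.28%, taking 3 counts as the limit of a count of 0. Summed markers of immune cells were higher in tuft-like cells than in any other epithelial type, at 479 and 271 CPM against 62945 and 67608 CPM in immune-like cells, where Pparg was at 0.

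The RXR partners had unlike patterns. Rxra was higher in absorptive than in stem-like cells, with 16.1 and 17.8 CPM in stem-like, 29.5 and 28.6 CPM in early enterocyte-like, 44.5 and 42.6 CPM in enterocyte-like and 53.5 and 54.4 CPM in ileal bile acid enterocyte-like cells, the first value of each pair being WT. Early enterocyte-like and enterocyte-like cells were apart in both libraries, and the enterocyte-like and ileal types were apart in neither. Within the ileal type, the cluster led by Saa1 and Slc10a2 held 86.7 and 89.4 CPM and the cluster led by Fabp6 and Gsdmc4 43.8 and 41.6 CPM. Goblet-like cells held 12.6 and 12.7 CPM and tuft-like cells 8.03 and 6.46 CPM. Rxrb was flatter and leaned the other way. It was highest in enteroendocrine-like cells at 28.7 CPM (22.1 to 36.5) in WT cells and 20.9 CPM (15.1 to 28.2) in MG53-TG cells and in stem-like cells at 21.3 and 23.7 CPM, and enterocyte-like cells held only 7.71 and 10.6 CPM.

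The PGC-1 coactivators split between mature and young absorptive cells. Ppargc1a was highest in enterocyte-like cells at 81.7 CPM (76.9 to 86.6) in WT cells and 81.9 CPM (77.3 to 86.6) in MG53-TG cells, followed by ileal bile acid enterocyte-like cells at 42.3 and 61.8 CPM and early enterocyte-like cells at 31.4 and 33.6 CPM, each step beyond the intervals in both libraries. Stem-like cells held 10.5 and 11.0 CPM and goblet-like cells 4.77 and 3.53 CPM. Both stood below the 26.1 CPM of the WT free RNA, whose part in these levels was not tested. In tuft-like cells 0 UMIs were counted in WT, which allows up to 1.15 CPM, and 5 in MG53-TG. Ppargc1b was highest earlier on the same path, at 52.9 CPM (49.4 to 56.5) in WT cells and 56.0 CPM (51.2 to 61.0) in MG53-TG cells in early enterocyte-like cells, 45.6 and 47.3 CPM in cycling crypt-like cells and 41.4 and 39.7 CPM in stem-like cells. Goblet-like cells held 11.8 and 12.5 CPM. Within enterocyte-like cells the cluster led by Sult6b2 and Papss2 held 44.5 and 49.4 CPM of Ppargc1b, and the cluster led by Plb1 and Enpp7 held 22.3 and 20.2 CPM. For Ppargc1a the same clusters went the other way, with 77.2 and 78.9 CPM in the first and 98.3 and 95.8 CPM in the second. A small cluster of 62 WT and 66 MG53-TG enterocyte-like cells, led by Ada and Clca4a, held only 23.8 and 2.84 CPM of Ppargc1a, from 6 UMIs and 1 UMI.

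Ncor1 and Hnf4a were measured in every epithelial type with over 100 UMIs. Ncor1 was highest in enterocyte-like cells at 321 CPM (311 to 331) in WT cells and 357 CPM (347 to 367) in MG53-TG cells and stood at 137 and 161 CPM in goblet-like cells. Immune-like cells held 221 and 251 CPM, within the epithelial range. Hnf4a was highest in ileal bile acid enterocyte-like cells at 240.2 CPM (227 to 254) in WT cells and 269.6 CPM (247 to 294) in MG53-TG cells, and immune-like cells held 6.67 and 11.9 CPM, below each epithelial type. Within the ileal type, the cluster led by Saa1 and Slc10a2 held 429 and 464 CPM of Hnf4a and the cluster led by Fabp6 185 and 198 CPM, at medians of 3678 and 17357 UMIs per cell. On the other strand, Ncor1 overlaps Ttc19, Pigl and Gm12276, Hnf4a overlaps Hnf4aos, Pparg overlaps Gm44079, Ppargc1a overlaps Gm42613 and Ppargc1b overlaps Gm25301. The use of strand in counting is not stated. On the same strand, Ppargc1a overlaps Gm42614, Gm42615 and Gm43605, Ppargc1b overlaps Mir378a and Hnf4a overlaps Gm25881. Reads of these pairs cannot be told apart.

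Paneth-like cells were the lowest type for 7 of the 9 genes in both libraries, all but Pparg and Ppargc1a, on a scale that few genes set. Their 100 most abundant genes, led by defensins, took 83.0% and 81.8% of UMIs, against 43.2% and 41.3% in early enterocyte-like cells. Scaled to 1000000 of the other UMIs, Ppard in Paneth-like cells stood at 66.1 and 90.4, above stem-like cells at 49.3 and 49.7. Hnf4a there reached 251 and 201, inside the range of the other types. Ppara in Paneth-like cells stood at 15.7 and 9.32 on this scale, against 11.2 and 11.8 in goblet-like and 4.83 and 3.48 in tuft-like cells.

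Between the genotypes, Ppara was lower in MG53-TG when all epithelial cells were summed, although the ratio was above 0 in 4 of the 5 types with at least 100 UMIs. The sum gave 14.2 CPM (13.5 to 14.98) in WT cells and 12.5 CPM (11.8 to 13.2) in MG53-TG cells, from 1510 and 1123 UMIs, a log2 ratio of MG53-TG over WT of -0.19 (-0.30 to -0.077), or 1.14-fold lower. Summed immune markers were lower in the same sum, at 40.6 and 24.7 CPM, while Ptprc alone was higher, at 665 WT against 1079 MG53-TG UMIs, and immune-like cells had 1 and 0 UMIs of Ppara. In early enterocyte-like cells the ratio was 0.18 (-0.032 to 0.39), in cycling crypt-like cells 0.0093 (-0.23 to 0.25), in enterocyte-like cells 0.033 (-0.23 to 0.29) and in goblet-like cells 0.11 (-0.21 to 0.45). Each of these 4 intervals included 0. The exception was ileal bile acid enterocyte-like cells, at -0.45 (-1.06 to 0.13) from 114 and 32 UMIs. Over all genes the median ratio was above 0 too, at 0.054, 0.032, 0.068, 0.034 and 0.061 in these 5 types as ordered here. For Ppara, the clusters within early enterocyte-like cells gave 0.17 and 0.25.

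The mix of types moved at the same time. Goblet-like cells, low in Ppara, went from 27.8% of epithelial cells in WT to 41.0% in MG53-TG, and early enterocyte-like cells, high in Ppara, from 14.0% to 7.92%. With every type given the same weight in both libraries, its share of all UMIs, the log2 ratio of Ppara was 0.040 (-0.074 to 0.15). With the level of each type held equal and only the mix changed, it was -0.23. The same turn was seen for Ppargc1b, which went from -0.13 (-0.21 to -0.057) in the sum to 0.053 (-0.025 to 0.13) at the same mix. With 1 library per genotype, whether the mix differed through genotype, through the mice or through the preparation cannot be told apart.

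**Figure D2:**
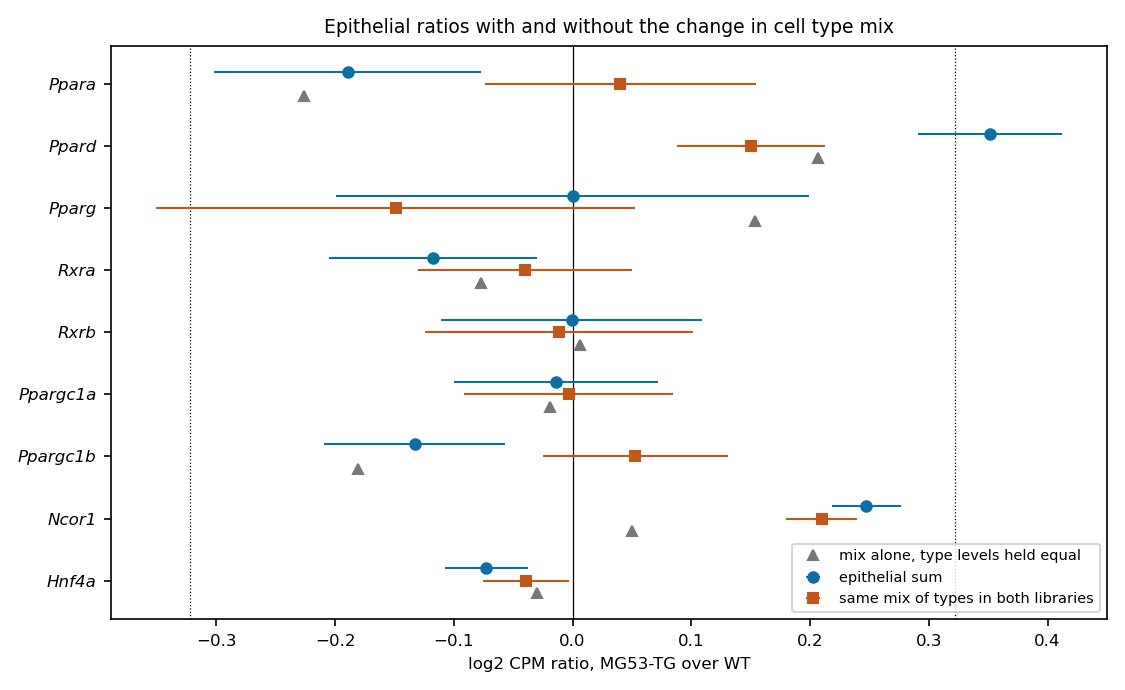
Log2 ratio of CPM, MG53-TG over WT (x axis), for each gene (y axis) in the epithelial sum (blue circles), with the same mix of types in both libraries (orange squares) and for the mix alone with type levels held equal (grey triangles). Bars are 95% intervals for counting error and dotted lines mark the fold limit; Ppara moves from -0.19 to 0.040 and Ppard from 0.35 to 0.15.

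Ppard was the 1 member past the fold limit in the epithelial sum, and it was higher in MG53-TG. Of the 9 members, 1 was higher and 0 lower by that measure, where 16% of the 12833 genes with at least 100 UMIs were higher and 5.18% lower, so the share of members was no larger than that of all genes. Ppard stood at 40.0 CPM (38.8 to 41.3) in WT cells and 51.1 CPM (49.6 to 52.6) in MG53-TG cells, a log2 ratio of 0.35 (0.29 to 0.41), or 1.28-fold higher. At the same mix of types the ratio was 0.15 (0.088 to 0.21), short of the fold limit, as it was when scaled by the median of gene ratios, at 0.26, or to the total without the 100 most abundant genes, at 0.30. The ratio over all genes had a median of 0.089. Ppard was higher in enterocyte-like cells, 0.36 (0.23 to 0.49), and in goblet-like cells, 0.16 (0.066 to 0.26), and lower in cycling crypt-like cells, -0.26 (-0.47 to -0.049).

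Ncor1 had a ratio above 0 in 9 of the 10 types, in 7 of them with an interval above 0. In the epithelial sum it was at 179.7 and 213 CPM, a log2 ratio of 0.25 (0.22 to 0.28), or 1.19-fold, short of the fold limit. The highest ratio was in tuft-like cells at 0.34 (0.18 to 0.50) and the exception was enteroendocrine-like cells at -0.0039 (-0.17 to 0.16). It was 0.21 (0.18 to 0.24) at the same mix and ranged from 0.14, as a mean of single-cell CPM, to 0.34, at a mitochondrial limit of 50%, over the 15 alternatives. The immune-like cells, outside the epithelium, gave 0.19 (-0.049 to 0.42). Over all genes the median ratio was above 0 as well, at 0.089 in the sum and between 0.0078 and 0.12 in the 10 types.

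The other members moved little in the sum. Rxra gave -0.12 (-0.21 to -0.030), Hnf4a -0.073 (-0.11 to -0.038) and Ppargc1a -0.014 (-0.10 to 0.072). Pparg and Rxrb were level, at 4.29 and 4.29 CPM and 13.8 and 13.8 CPM. For Pparg the tuft-like share of cells was larger in MG53-TG while the ratio within tuft-like cells was -0.25 (-0.68 to 0.19) and within goblet-like cells -0.75 (-1.22 to -0.29), and the value at the same mix was -0.15 (-0.35 to 0.052). Hnf4a went both ways between types, above 0 in enterocyte-like cells at 0.12 (0.034 to 0.20) and ileal bile acid enterocyte-like cells at 0.17 (0.014 to 0.32), and below 0 in goblet-like cells at -0.17 (-0.25 to -0.10), cycling crypt-like cells at -0.11 (-0.18 to -0.031) and enteroendocrine-like cells at -0.26 (-0.50 to -0.028). None of these was past the fold limit. The Ppargc1a value turned with the mitochondrial limit, from -0.24 at 10% to 0.24 at 50% mitochondrial UMIs per cell.

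Stem-like cells, the Lgr5 and Olfm4 cluster, numbered 278 in WT and 149 in MG53-TG. Their own markers differed between the libraries, with Lgr5 at 20.7 and 54.2 CPM and Olfm4 at 2877 and 4249 CPM, and the part of this in the ratios of stem-like cells was not tested. Ppara was counted there at 11.0 CPM (8.36 to 14.3) in WT cells and 12.4 CPM (8.96 to 16.8) in MG53-TG cells, from 57 and 42 UMIs, a log2 ratio of 0.17 (-0.44 to 0.77), and no difference was detectable at this depth. WT free RNA held Ppara at 7.76 CPM (5.70 to 10.3), which overlapped the WT stem-like interval, and its part was not tested. Summed immune markers in stem-like cells stood at 13.7 and 7.40 CPM. With cycling crypt-like cells added, a choice made after the data were seen, the ratio was 0.021. After thinning, 2.16% (0.796% to 4.64%) of WT and 3.36% (1.10% to 7.66%) of MG53-TG stem-like cells had a Ppara UMI, and 17.3% and 20.1% before it, at medians of 17107 and 20536 UMIs. In immune-like cells, outside the epithelium, the thinned share was 0.166% (0.00421% to 0.924%) in WT. There 0 of 234 MG53-TG cells had a UMI, which allows up to 1.28%. Of the 6 members with at least 100 UMIs in stem-like cells, 0 were past the fold limit in either direction, where 14.2% of 6792 genes were higher and 8.02% lower. The widest difference among these was Hnf4a, at 135 and 155 CPM and 0.20 (0.035 to 0.37), and the ratio was -0.059 with cycling crypt-like cells added. Rxra gave 0.15 (-0.36 to 0.64), Rxrb 0.15 (-0.28 to 0.58) and Ppargc1b -0.062 (-0.38 to 0.26).

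**Figure D3:**
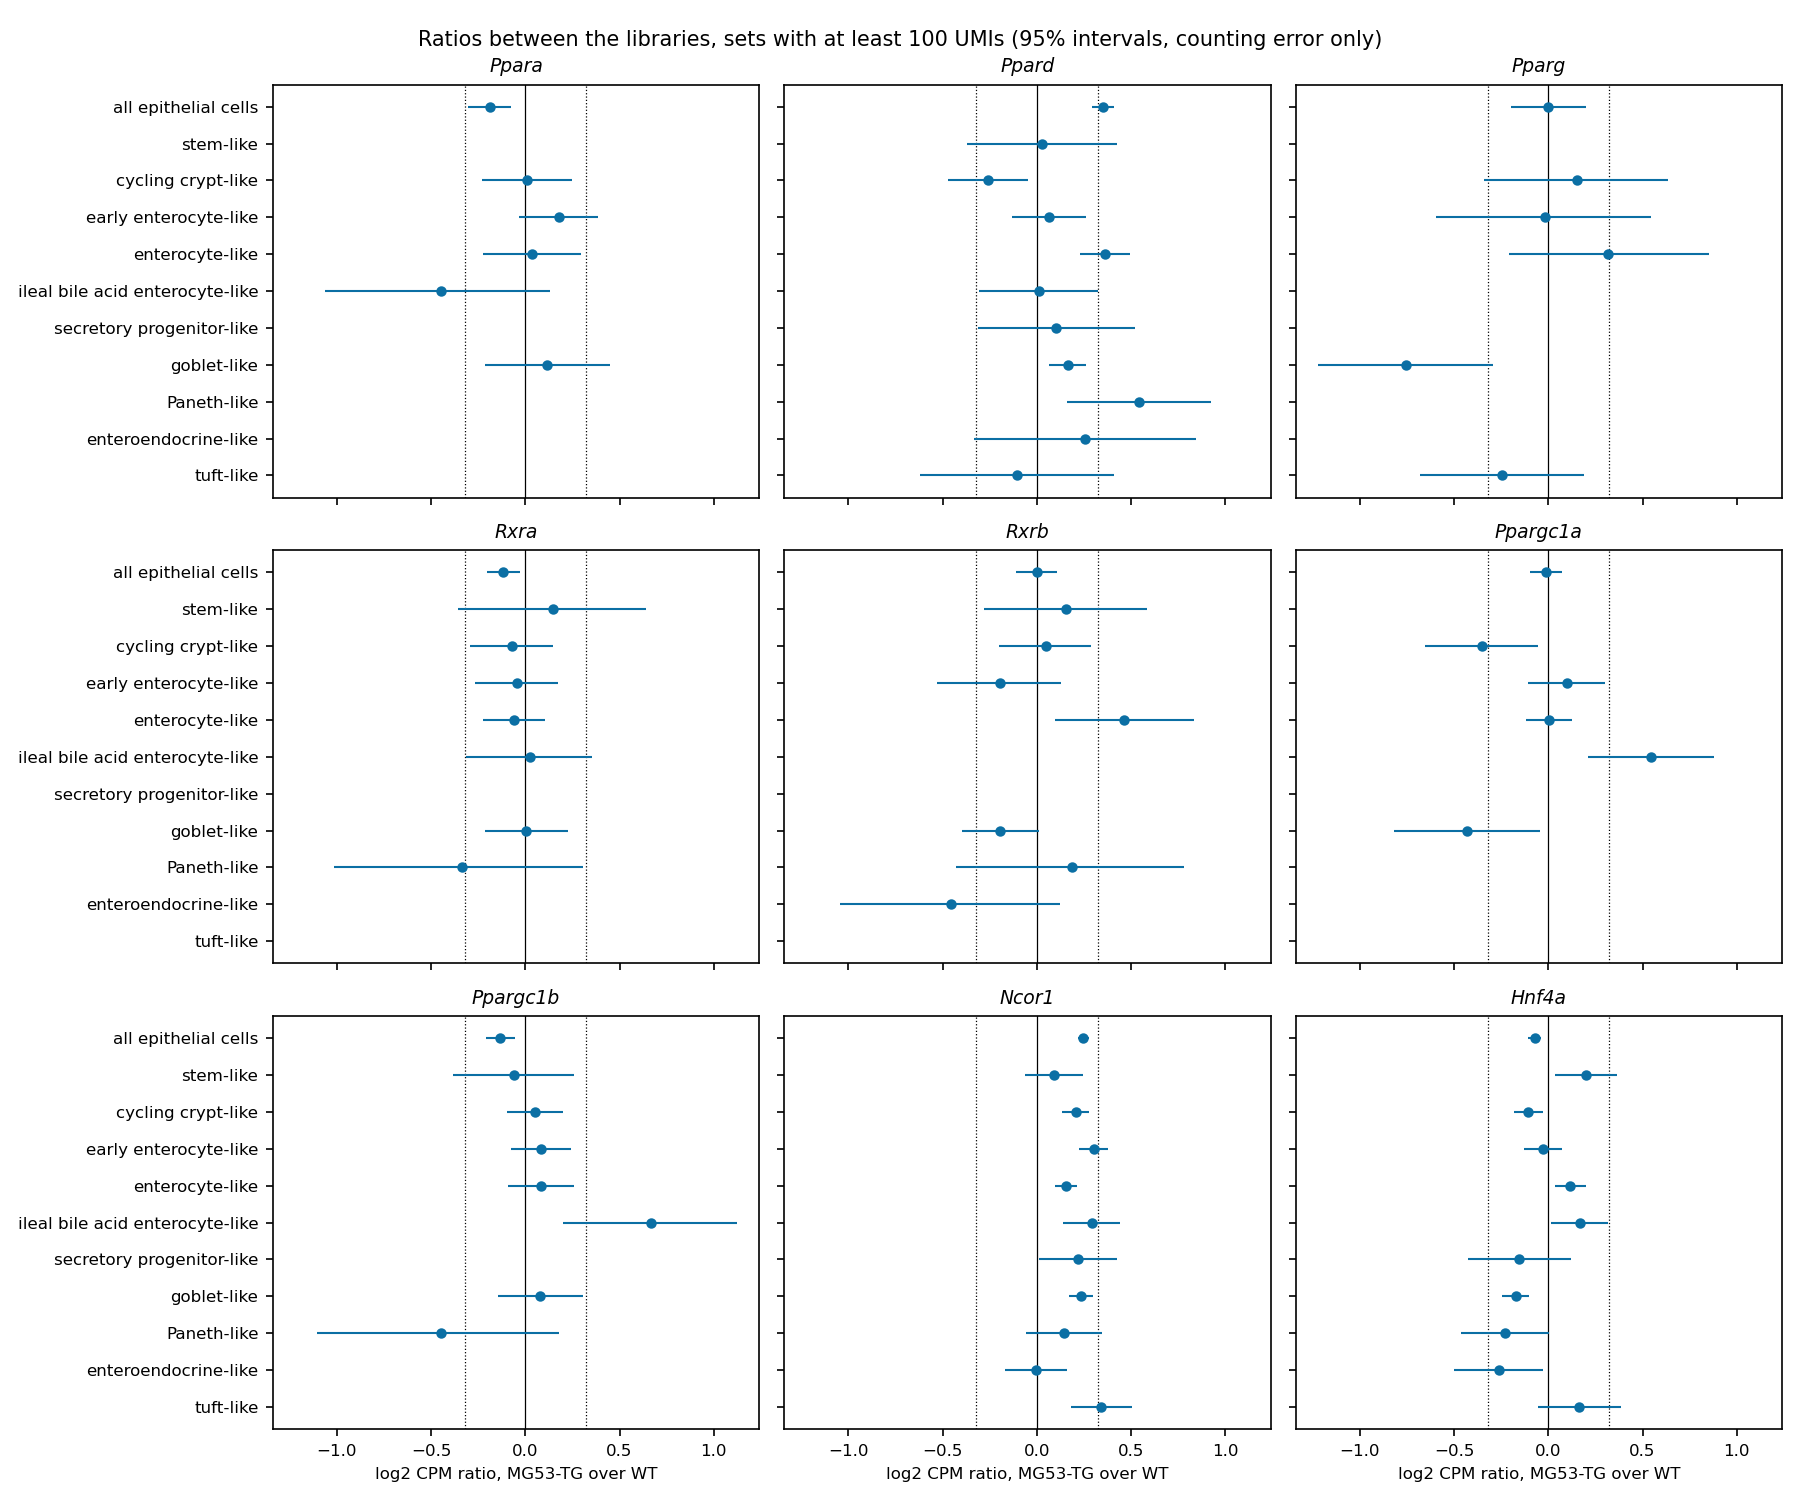
Log2 ratio of CPM, MG53-TG over WT (x axis), for each gene in the epithelial sum and in each type where it had at least 100 UMIs over both libraries (y axis), with 95% intervals for counting error; dotted lines mark the fold limit. Ncor1 lies above 0 in 9 of 10 types, while Ppargc1a ranges from -0.43 in goblet-like to 0.55 in ileal bile acid enterocyte-like cells.

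In the remaining types the members past the fold limit are read against all genes with at least 100 UMIs in that type. None of the 9 was past it in early enterocyte-like cells, where 9.88% of genes were higher and 5.98% lower. Cycling crypt-like cells had 1 of 9, Ppargc1a at -0.35 (-0.65 to -0.055), against 11.1% of genes in either direction. Summed immune markers were at 22.4 and 14.4 CPM there and at 28.1 and 21.6 CPM in enterocyte-like cells. Enterocyte-like cells had 2 of 9, Ppard and Rxrb, the latter at 7.71 and 10.6 CPM and 0.46 (0.095 to 0.84), against 15.3%. Goblet-like cells had 2 of 9, Pparg and Ppargc1a, both lower, against 11.3%. The Pparg value there rested on 90 and 72 UMIs, and summed immune markers in goblet-like cells were lower as well, at 37.0 and 8.31 CPM, while Pparg was at 0 in immune-like cells. The goblet-like clusters were unequally filled, that led by Retnlb and Ccl9 with 31.8% of the WT and 21.9% of the MG53-TG cells. Pparg stood at -0.15 in that cluster, at -0.96 in that led by Mptx1 and Scin and at -1.05 in that led by Ido1 and Frmd3, and that led by the interferon genes Ifi44 and Iigp1 had 1 and 4 UMIs. Ppargc1a stood at -0.61, -0.24 and 0.18 in the same 3 clusters and at -0.29 in the interferon one, and each of these 4 intervals included 0.

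Ileal bile acid enterocyte-like cells had 3 of 7, against 28.5% of genes. Both coactivators were higher there, Ppargc1a at 0.55 (0.21 to 0.88) from 42.3 and 61.8 CPM and Ppargc1b at 0.67 (0.20 to 1.12) from 21.5 and 34.0 CPM, and Ppara was lower with an interval that included 0. In the cluster led by Fabp6 Ppargc1a went from 39.4 to 65.2 CPM and Ppargc1b from 26.2 to 45.1 CPM. In the cluster led by Saa1 and Slc10a2 Ppargc1a was at 52.2 and 52.4 CPM, and Ppargc1b had 6 and 2 UMIs. Immune markers in the type stood at 62.0 and 15.2 CPM, and their part in these ratios was not tested. Paneth-like cells had 3 of 6, Ppard higher at 0.54 (0.16 to 0.93) and Rxra at -0.34 (-1.02 to 0.31) and Ppargc1b at -0.45 (-1.11 to 0.18), both with intervals that include 0, against 42.7% of genes there. Summed immune markers in Paneth-like cells were at 19.5 and 6.10 CPM. Enteroendocrine-like cells had 1 of 4, Rxrb lower at -0.45 (-1.05 to 0.12), against 21%, with summed immune markers at 100.5 and 67.6 CPM. Their clusters differed, with 47.7 and 21.9 CPM of Rxrb in that led by Afp and Tph1, which held 39.2% of the WT and 26.5% of the MG53-TG cells, and 21.0 and 20.7 CPM in that led by Sst and Ghrl. Tuft-like cells had 1 of 4, Ncor1, against 18.4%, and secretory progenitor-like cells 0 of 3 against 20.3%.

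Of the genes that PPARs are known to switch on, 10 of 21 were higher past the fold limit in early enterocyte-like cells of MG53-TG. Of all genes there, 9.88% were higher and 5.98% lower. Of 24 targets, 23 had at least 100 UMIs in the epithelial sum, with 4 past the fold limit higher, 0 lower and a median log2 ratio of 0.13, against 16% of all genes higher, 5.18% lower and a median of 0.089, so the share of targets was near that of all genes. These 4 were Cyp4a10, a fatty acid ω-hydroxylase, from 5.19 to 10.7 CPM and a ratio of 1.05 (0.89 to 1.20), Mgll, which splits monoglycerides, at 0.84 (0.76 to 0.92), Me1, malic enzyme, at 0.82 (0.74 to 0.90), and Aqp7, a glycerol channel, at 0.48 (0.080 to 0.88). In early enterocyte-like cells 0 were lower and the median was 0.32 against 0.054 over all genes. Summed immune markers there were at 17.1 and 9.67 CPM. Cyp4a10 went from 21.1 to 51.4 CPM there and Me1 from 37.6 to 69.1 CPM. The type divided unequally, with 56.4% of its WT and 43.0% of its MG53-TG cells in the cluster led by Gsdmc4 and the rest in the cluster led by Cyp4a10 itself. Taken apart, the first had 11 of 21 targets higher and the second 9 of 21, with 0 lower in each, where 14.0% and 11.5% of all genes were higher. Cyp4a10 is a leading gene of the second cluster, so its own level there helped to define the cells.

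The same list had 7 of 22 targets higher and 2 lower in enterocyte-like cells, 7 of 20 higher in goblet-like cells and 7 of 21 in cycling crypt-like cells, with 0 lower in goblet-like and cycling crypt-like cells. Of all genes, 10.1%, 5.63% and 6.68% were higher in these 3 types and 5.15%, 5.66% and 4.45% lower. Ileal bile acid enterocyte-like cells had 1 of 17 higher and 1 lower, where 18.5% of genes were higher and 10.0% lower. In Paneth-like cells 1 of 15 was higher and 2 lower, where 29.1% were higher and 13.5% lower. Tuft-like cells had 1 of 14 higher and 1 lower, at a median of -0.059, where 13.3% were higher and 5.15% lower. Enteroendocrine-like cells had 2 of 15 and secretory progenitor-like cells 3 of 13 higher, with 0 lower in either. There 10.0% and 13.1% of genes were higher and 11.0% and 7.14% lower. The genes lower in enterocyte-like cells, named after their values were seen, were Pdk4, a kinase that shuts off glucose oxidation, at -0.56 (-0.91 to -0.21) and the lipase inhibitor Angptl4 at -0.44 (-0.61 to -0.28). Both were higher in early enterocyte-like cells, Pdk4 at 0.67 (0.29 to 1.04) and Angptl4 at 0.87 (0.69 to 1.05). In goblet-like cells Me1 stood at a ratio of 1.12 (0.95 to 1.29) and Mgll at 0.69 (0.58 to 0.81). In stem-like cells 0 of 17 were higher and 2 lower, with a median of -0.066 against 0.046 over all genes, of which 14.2% were higher and 8.02% lower. Among the lower was Cpt2, of the mitochondrial carnitine shuttle, at -0.36 (-0.62 to -0.098), named after its value was seen.

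Genes that bring fatty acids to the receptors were higher in 5 of 13 cases in the epithelial sum and lower in 0, at a median of 0.15, where 16% of all genes were higher and 5.18% lower. Fabp1, the liver-type fatty acid binding protein, went from 3983 to 5344 CPM, a ratio of 0.42 (0.42 to 0.43), and its intestinal relative Fabp2 from 2116 to 2901 CPM. Slc27a2, an acyl-CoA synthetase, was at 0.45 (0.38 to 0.51) and its relatives Acsl4 at 0.49 (0.31 to 0.69) and Acsl5, named after its value was seen, at 0.39 (0.36 to 0.42). Fabp1 is also among the leading genes of an early enterocyte-like cluster. In stem-like cells 0 of 8 were past the fold limit, where 14.2% of genes were higher and 8.02% lower, with Fabp1 at -0.18 (-0.27 to -0.097) and Fabp2 at 0.16 (0.054 to 0.26). The types went both ways. Ileal bile acid enterocyte-like cells had 6 higher and 0 lower of 9 (all genes 18.5% and 10.0%), cycling crypt-like cells 5 higher and 0 lower of 11 (all genes 6.68% and 4.45%), enteroendocrine-like cells 4 higher and 1 lower of 8 (all genes 10.0% and 11.0%), early enterocyte-like cells 4 higher and 2 lower of 12 (all genes 9.88% and 5.98%) and enterocyte-like cells 2 higher and 0 lower of 11 (all genes 10.1% and 5.15%). Goblet-like cells had 2 higher and 2 lower of 12 (all genes 5.63% and 5.66%), tuft-like cells 1 higher and 1 lower of 7 (all genes 13.3% and 5.15%), secretory progenitor-like cells 0 higher and 2 lower of 7 (all genes 13.1% and 7.14%) and Paneth-like cells 1 higher and 3 lower of 7 (all genes 29.1% and 13.5%).

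Of other receptors that pair with RXR, 1 of 10 was higher in the sum, the retinoic acid receptor Rarg from 0.406 to 0.856 CPM, and 0 were lower, while in stem-like cells 1 of 8 was higher and 3 were lower, against 16% higher and 5.18% lower of all genes in the sum and 14.2% and 8.02% in stem-like cells. Those in stem-like cells were the bile acid receptor Nr1h4 at -0.93 (-1.42 to -0.47) and the oxysterol receptor Nr1h3 at -0.71 (-1.37 to -0.080) and the thyroid hormone receptor Thrb, named after its value was seen, at -0.40 (-0.91 to 0.097), all 3 lower, and the xenobiotic receptor Nr1i2 at 0.46 (-0.029 to 0.94). Coactivators had 1 of 9 past the fold limit in the sum, Ncoa3 at 0.37 (0.26 to 0.48), with Ep300 at 0.19 (0.12 to 0.26), Pprc1 at 0.13 (-0.0045 to 0.26) and Carm1 at -0.025 (-0.15 to 0.095), and 0 of 8 in stem-like cells. Of the corepressors beside Ncor1, 1 of 7 was higher in the sum and 3 of 7 in stem-like cells, with 0 lower in either, against 16% and 14.2% of genes higher. Sin3a stood at 0.53 (0.11 to 0.94), Tbl1x at 0.36 (0.10 to 0.61) and Gps2 at -0.22 (-0.57 to 0.13) in stem-like cells. Intestinal transcription factors beside Hnf4a had 0 of 12 in the sum and 4 of 11 lower in stem-like cells, where 8.02% of genes were lower and 14.2% higher, Elf3 at -0.44 (-0.58 to -0.29), Klf5 at -0.42 (-0.52 to -0.31), Gata4 at -0.40 (-0.80 to -0.014) and Nr5a2 at -0.37 (-0.80 to 0.056), with 0 higher.

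**Figure D4:**
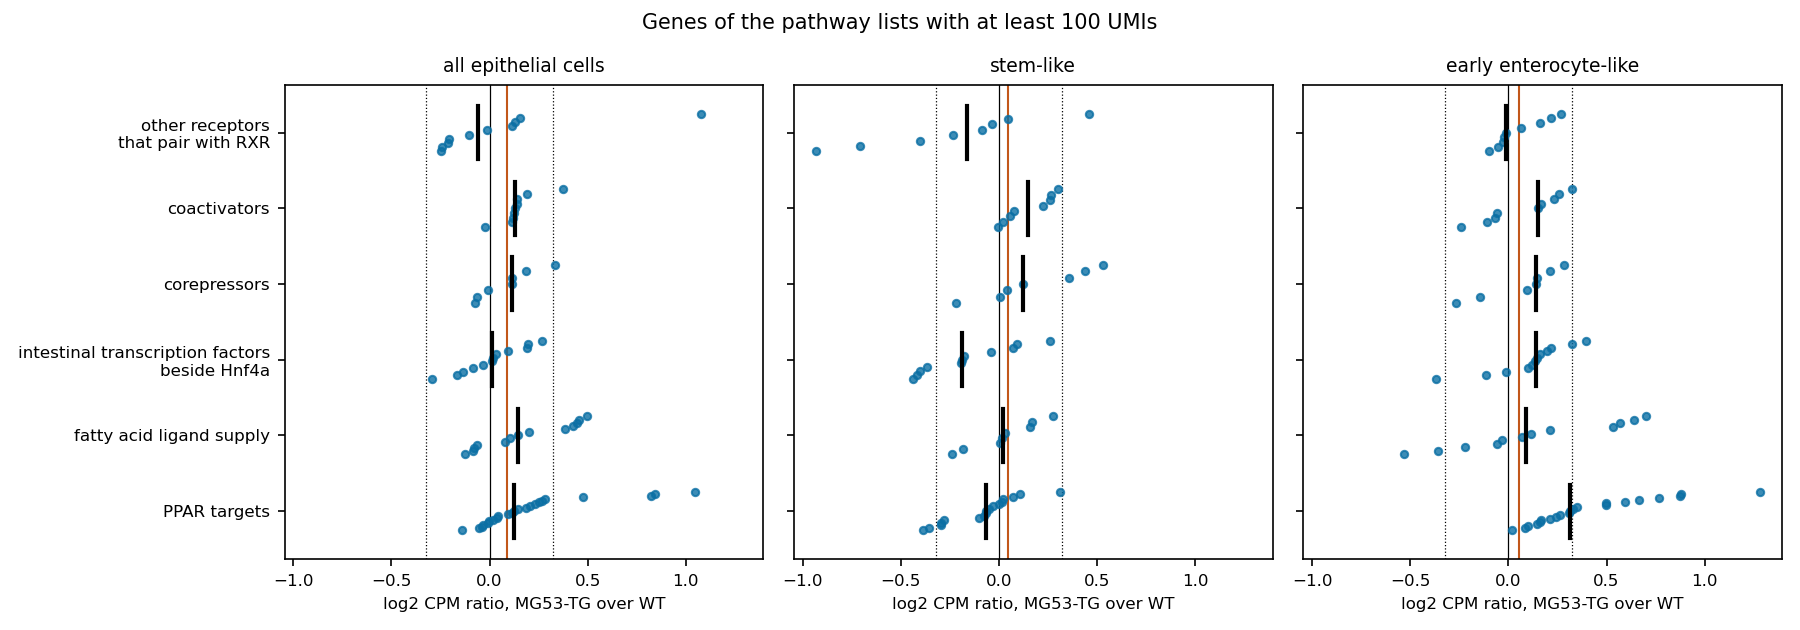
Log2 ratio of CPM, MG53-TG over WT (x axis), for each gene with at least 100 UMIs (points) of 6 pathway lists (y axis) in the epithelial sum, in stem-like cells and in early enterocyte-like cells. Black bars are list medians, the orange line is the median of all genes and dotted lines mark the fold limit; the median of the PPAR targets is 0.32 in early enterocyte-like cells and -0.066 in stem-like cells.

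The likeness of patterns was described by the Pearson correlation of log2(CPM + 1) over 20 points, the 10 types in each library, against 11627 genes. The points of a type share its cells' identity and those of a library its depth, so no p is given. Among the members, Rxra and Ppargc1a were most alike at 0.911, and Ppara was closest to Rxra at 0.847 and Ppargc1a at 0.834. Pparg was unlike the others, from -0.297 with Ppargc1a to 0.311 with Ncor1. The genes most like Ppara were Abat (0.955), an enzyme of GABA breakdown, Pafah2 (0.955) and the peroxiredoxin Prdx1 (0.947). Ppard was most like Trpm4 (0.933), a cation channel, Rrbp1 (0.922) and Cast (0.922). Pparg was most like Inpp5b (0.947), Galk1 (0.946) and Aldh2 (0.936), values that fell to 0.805, 0.848 and 0.753 without the tuft-like points. For the partners, the closest 3 were Lrrc1, Ext1 and Kcnk5 for Rxra, from 0.965 to 0.976, and Ube2d1, Fubp3 and Zfp386 for Rxrb, from 0.949 to 0.962. Ppargc1a was closest to Pla2g12b, Ces2a and Pfkfb4, from 0.951 to 0.961, and Ppargc1b to Idh3a, Bola3 and Ptges2, mitochondrial proteins, from 0.965 to 0.975. Ncor1 was closest to Synj2bp, Socs4 and Ggnbp2, from 0.970 to 0.981, and Hnf4a to Paqr4, Resf1 and Abcd4, from 0.950 to 0.973.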

How the data were processed

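Single-cell RNA of sorted intestinal epithelial cells was measured in 1 WT and 1 MG53-TG library by droplet sequencing of 3′ ends (10x Genomics, version 3 chemistry). The authors deposited unscaled counts of UMIs for each gene and barcode against mm10. Per the file headers, Cell Ranger 4 made the WT table and Cell Ranger 6.0.1 that of MG53-TG. The WT table held empty droplets and the MG53-TG table none, so program version, barcode filtering and genotype coincide.

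Barcodes with at least 1354 UMIs, 200 genes and at most 25% mitochondrial UMIs were kept. Scrublet's automatic threshold marked under 0.5% of cells, so cells were removed from the top of the score instead, 0.8% for every 1000 cells, 438 WT (5.92%) and 212 MG53-TG (4.11%). Both libraries were clustered together in scanpy 1.11.5, without the members and Trim72, into 25 Leiden clusters (2000 variable genes, 30 components, 15 neighbours, resolution 1). A cluster was named X-like from at least 3 markers, each detected in 10% of its cells at 1.5 times the level elsewhere, and how this rule treats cycling genes and mixed markers was set after the clusters were seen. 1 epithelial cluster stayed unnamed and entered only the epithelial sum. A goblet-like cluster of 51 WT and 136 MG53-TG cells was led by interferon genes.

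UMIs were summed per type and library and scaled to CPM. Intervals are exact Poisson for levels, exact conditional binomial for ratios and Clopper-Pearson for shares, and a count of 0 was read as up to 3 counts. The same-mix ratio weights each type by its share of UMIs over both libraries. The fold limit was 1.25-fold, among genes with at least 100 UMIs over both libraries. Named genes were the 9 members, up to 4 genes of each pathway list with the largest change in the sum or in stem-like cells, and the 3 genes most like each member; some genes of the lists are not reported here. The alternatives are in the closing section. The members, lists and cell types were chosen with earlier results of these data known.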

Additional observations from a re-analysis of the deposited data

Results flagged for a closer look

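For 3 of the 9 genes, MG53-TG stood above WT in one cell type and below it in another, with counting intervals on opposite sides of 0, among types with at least 100 UMIs of the gene. Ppard was higher in Paneth-like cells, at a log2 ratio of 0.54, and lower in cycling crypt-like cells, at -0.26. Ppargc1a was higher in ileal bile acid enterocyte-like cells, at a log2 ratio of 0.55, and lower in goblet-like cells, at -0.43. Hnf4a was higher in stem-like cells, at a log2 ratio of 0.20, and lower in enteroendocrine-like cells, at -0.26. Within goblet-like cells the Ppargc1a interval of each of the 4 clusters included 0, and the stem-like Hnf4a ratio turned below 0 under 4 of 13 alternatives, down to -0.059. With 1 library per genotype, the difference between the types was not tested.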

How the results depend on the processing

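No paired analysis was possible because each genotype had 1 library, and no library could be left out. Of the alternatives, 15 for the epithelial sum and 13 for stem-like cells, the log2 ratio of Ppara in the sum was below 0 in 14 and turned to 0.040 at the same mix of types. It moved to -0.34 as a mean of single-cell CPM and to -0.061 with each type weighted equally. The count of members past the fold limit went from 1 to 0 with scaling by the median of gene ratios, with the total without the 100 most abundant genes, at the same mix and with types weighted equally, and to 2 at a mitochondrial limit of 50%, where Ncor1 joined Ppard. As a mean of single-cell CPM the count was again 1, but the member was Ppara, lower, and Ppard stood at 0.24. Ppargc1b turned to 0.053 at the same mix, 0.011 with equal weights and 0.072 at the 50% limit, Hnf4a to 0.0019 with equal weights and Rxra to 0.019 at the 50% limit. The higher Ppard and Ncor1 values kept their direction in all 15. In stem-like cells the count of members stayed at 0 in all 13, and Ppara ranged from -0.21 to 0.24, inside its interval. Hnf4a there turned to -0.059 with cycling crypt-like cells added (chosen after seeing the data), -0.0070 at a minimum of 500 UMIs, -0.056 at the 50% limit and -0.0015 at a resolution of 0.5. Other than for the weights and the mitochondrial limit, which change the cells and types by construction, the cause was not tested.

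Intervals and floors cover counting error only and leave out the spread between mice. Depth limits Ppara most in stem-like, secretory progenitor-like, Paneth-like, enteroendocrine-like and tuft-like cells, each under 100 UMIs.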
